A study of Xerophyta schlechteri with 51 samples.

Results

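A set of 25 transcripts rose in drying leaf blades of Xerophyta schlechteri. In non-senescent tissue their mean levels were still above those at full turgor after 48 h of rehydration. The members were selected on measured values in non-senescent tissue (NST). The table lists 20783 gene IDs that occur once, and 25 of these met every limit, each set on the mean FPKM of a group of 3 libraries plus 1. FPKM counts sequenced fragments relative to transcript length and to the library's total. In NST at <10% relative water content (RWC, water relative to the fully hydrated leaf) the value had to lie from 10 to below 500 and to reach at least 8 times that at full turgor. At 55% RWC it had to reach at least 2 times that at full turgor. After 48 h of rehydration it had to reach at least 4 times that at full turgor while below that at <10% RWC. The levels in these 4 NST groups, and any contrast with them, are therefore a description, with no test.

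Xerophyta schlechteri is a resurrection plant, a species whose vegetative leaves survive the loss of nearly all their water and resume metabolism once rewatered. Drying leaves of such plants are known to accumulate transcripts of protective proteins and antioxidant enzymes, and most of these decline again when water returns. Some leaf tissue does not recover and enters senescence, a programmed breakdown in which the cell's contents are dismantled and exported. IDs in the deposited table carry no gene name or annotation, so no role can be given to any of the 25 members, and lists of senescence or other marker genes could not be matched to check the labelled states.

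The study sampled leaf blades at full turgor, at 75%, 55%, 35% and <10% RWC, and at 48 h of rehydration. Each stage has NST, tissue called pre-senescent (PST) and tissue called senescent (ST), except that PST was not sampled at full turgor. This gives 17 groups of 3 libraries. Water content is labelled for the NST, so the stages of PST and ST are those of the NST sampled with them. The labels describe the desiccated leaves as having 5% RWC and the rehydrated leaves as varying in RWC, and they do not name a genotype, an age or separate plants, so p-values reflect only how these samples spread, which may be technical.

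Some libraries stood apart. Absolute depth is unknown, because the table gives no read counts. Relative depth, the fragments behind 1 unit of FPKM as read from the spacing of the lowest values, ran from 0.478 to 1.52 over the 51 libraries. Its mean was 1.25 in NST at full turgor, 0.729 in NST at <10% RWC and 0.720 in rehydrated NST, and 1.29, 0.652 and 0.716 in the same stages of ST. Rehydrated NST replicates 0 and 1 (the numbers in the column names) resembled each other more than any other pair within a group. The median absolute log2 difference between them was 0.13 over 2534 abundant genes, and that of the next closest pair was 0.29. With no counts, it cannot be checked whether they differ by more than sampling noise. Averaging them into 1 library, an alternative chosen after seeing the data, gave 27 members, of which 22 were among the 25.

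The members were a small share of the drying-induced transcripts. In all, 488 IDs met the 3 limits on drying. With 1 added to the means as before, 388 of these returned to below 2 times the level at full turgor in rehydrated NST. A further 69 lay between this and the limit for members, 6 stood at or above the dry level, and 25 are the members. The 388 returned transcripts serve below as a side-by-side description, also chosen on the NST libraries. All 25 members had at least 1 FPKM in at least 3 libraries and were among the 18717 entries tested.

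**Figure D1:**
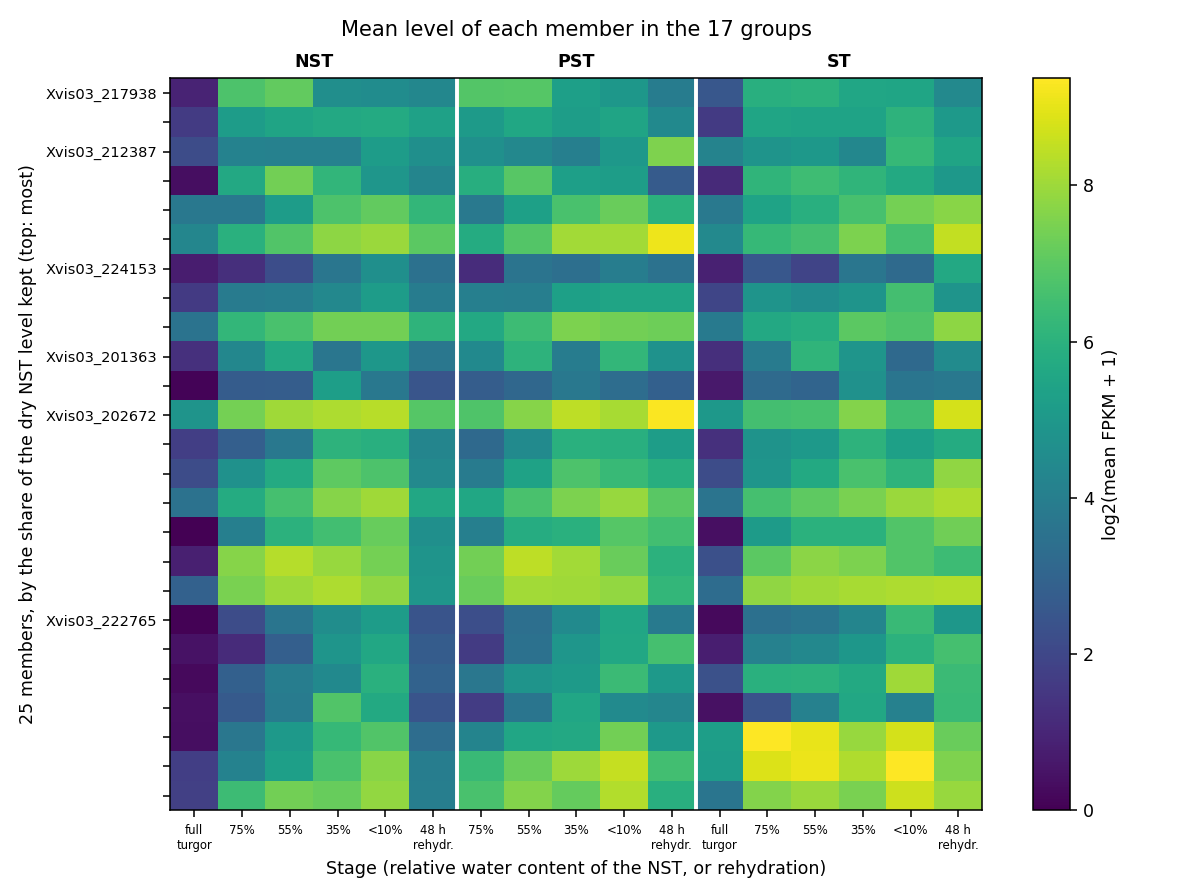
Mean level of each of the 25 members (rows) in the 17 groups (columns, in order of stage within NST, PST and ST), as log2(mean FPKM + 1) by colour. Rows are ordered by the share of the dry NST level that was kept in rehydrated NST, from 84.3% at the top to 6.58% at the bottom, and the rehydrated ST column is as bright as the dry ST column in many rows.

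In NST the members started low, and their median climbed until 35% RWC. Their median level was 2.02 FPKM at full turgor, where 11 of 25 had a mean under 1 FPKM and 3 were listed at 0 in at least 1 library. On drying it went to 17.0 FPKM (75% RWC), 43.3 (55%), 75.7 (35%) and 60.3 (<10%). The ratio of dry to full-turgor level that the limits used ran from 8.10 to 144, with a median of 22.9. The highest drying-stage mean fell at <10% RWC for 16 members, at 35% for 5 and at 55% for 4. In a bulk sample, fewer cells of a type and less RNA per cell cannot be told apart.

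Part of the rise came late. At 75% RWC the members had a median of 23.9% of their dry level, at 55% RWC 45.3% and at 35% RWC 77.6%. For the 388 returned transcripts the medians were 38.3%, 68.8% and 88.8%. The members ranged widely around these values, from 2.54% to 465% of the dry level at 75% RWC, and 7 of 25 stood at no less than 50% of it there.

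The step from 75% to 35% RWC used NST groups that had no part in the choice of members, apart from the drying direction they share with it. There, 11 members were higher and 1 lower by limma with Benjamini-Hochberg adjustment over all 18717 entries at a threshold of 0.05. Of all entries tested, 11.1% were higher and 11.7% lower. The median log2 difference, on the scale of log2(FPKM + 1) used for all tests, was 1.71 for the members, -0.09 for all entries and 1.08 for the returned transcripts. Of the returned transcripts 150 of 388 were higher and 7 lower. Leaving out replicate 0 of NST lowered the count of 12 to 4 (that of 75% RWC) or to 7 (that of 35% RWC), and it was 0 when only the 6 compared libraries were fitted (limma, with 13 members at an unadjusted p under 0.05).

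The member that was lower at 35% than at 75% RWC also kept the largest share of its dry level in rehydrated NST. Xvis03_217938, singled out after its values were seen, stood at 0.81, 1.54 and 0.39 FPKM in NST at full turgor. It stood at 119.88, 137.64 and 59.16 FPKM at 75% RWC, at 115.35, 47.93 and 254.53 at 55%, and at 31.55, 21.18 and 18.65 at 35% RWC. The 3 libraries at 35% RWC all lay below the 3 at 75% RWC, and the log2 difference was -2.05 (standard error 0.73, limma adjusted p = 0.0386). The call was lost with a pseudocount of 0.1 and without each library of the comparison except NST at 75% RWC replicate 2. In dry NST it stood at 27.36, 25.04 and 15.69 FPKM, and in rehydrated NST at 10.37, 15.12 and 31.88. These last 2 groups overlapped, so the 84.3% kept in the mean lies within the spread between libraries.

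After 48 h of rehydration the members of NST stood between their hydrated and dry levels. Their median was 18.1 FPKM, and the ratio to full turgor ran from 4.02 to 25.4 with a median of 5.59. The share of the dry level that was kept ran from 6.58% to 84.3%, with a median of 30.3%, against a median of 4.04% for the returned transcripts. The limits act on the ratio to full turgor and favour this order of the medians. The ranges overlap, as the returned transcripts kept from 0% to 22.8%. No less than 50% of the dry level was kept by 6 of the 25 members. All 3 rehydrated libraries lay above all 3 at full turgor for 23 of 25 members, where the same held for 21% of all entries tested, a comparison that the choice of members used.

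Single libraries passed the recovery limit unequally. With 1 added to both, rehydrated NST replicates 0, 1 and 2 alone reached 4 times the full-turgor mean in 19, 19 and 15 members. Replicate 2 was the highest of the 3 in 13 members (52.0%). The same held for 38.8% of all entries tested and for 63.9% of the returned transcripts, so the members' share lay between these. Xvis03_224153 shows the spread, with 4.39, 3.84 and 22.79 FPKM in the 3 rehydrated libraries against 0.75, 0.7 and 0.58 at full turgor. All 3 lay above full turgor, and replicate 2 stood far above the others. Replicates 0 and 1 alone fell short of the recovery limit, which adds 1 to each mean. The place of Xvis03_224153 among the members thus rests on replicate 2.

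Members and non-members lay close together at the recovery limit. With 1 added to both means, Xvis03_209833 stood just inside it at 4.02 times its full-turgor level in rehydrated NST, and Xvis03_202672 at 4.13 times. Just outside it, 2 IDs stood at 3.96 times on the same scale. Leaving out each of the 12 NST libraries behind the limits in turn gave 23 to 38 members, with 38 without NST at full turgor replicate 0, and 10 of the 25 stayed in all 12 sets. Adding 0.1 in place of 1 to the group means gave 59 members, which held all 25.

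**Figure D2:**
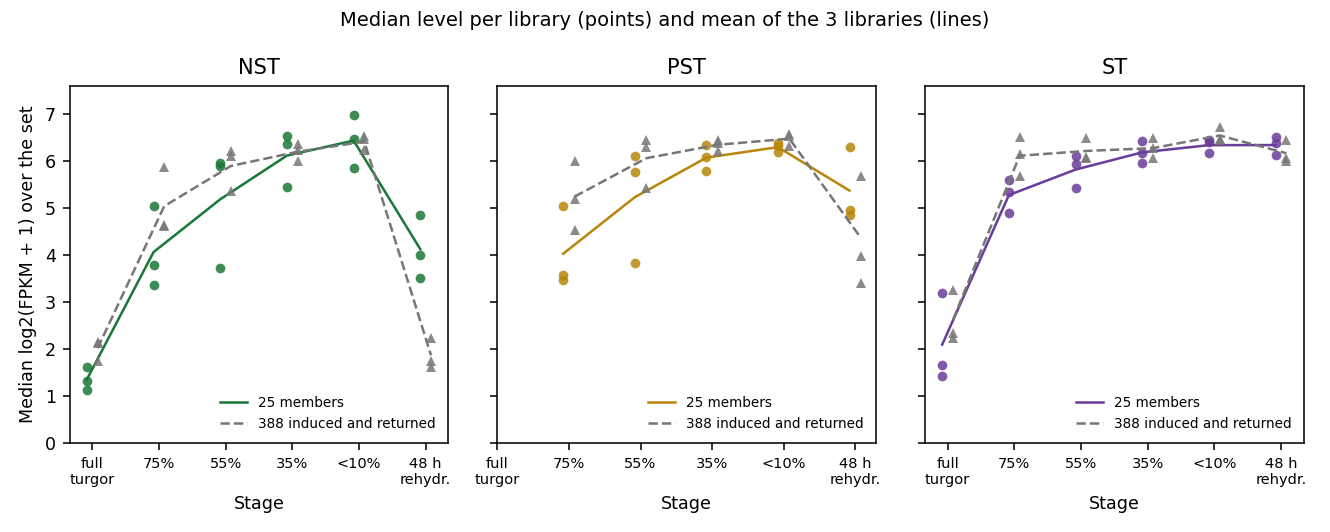
Median log2(FPKM + 1) over the 25 members (circles, solid lines) and over the 388 returned transcripts (triangles, dashed lines) in each library, by stage and by tissue, with lines through the mean of the 3 libraries. In rehydrated ST both sets stand near their dry level, and in rehydrated NST the members stand at a mean of 4.13 and the returned transcripts at 1.87.

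Senescent tissue too started from low levels. In ST at full turgor the members had a median of 3.92 FPKM, and 22 of 25 had a higher mean there than in NST. The same held for 322 of the 388 returned transcripts. Both sets were chosen for a low level in NST at full turgor relative to dry NST, which favours this direction. A single library stood apart in this group. ST at full turgor replicate 0 was the highest of its group for 21 of 25 members, and for 36.5% of all entries tested. Its median log2(FPKM + 1) over the members was 3.20, against 1.42 and 1.67 in replicates 1 and 2 and 1.13 to 1.63 in NST at full turgor.

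At 75% RWC 19 of 25 members were higher in ST than at full turgor and 0 were lower (limma, adjusted p under 0.05). Of all entries tested, 15% were higher and 19.9% lower. For the members the median log2 difference was 2.95, -0.08 for all entries and 3.04 for the returned transcripts, of which 351 of 388 were higher. The rise was positive in all 25 members and ran from 0.75 to 5.02. Limma's unadjusted p under 0.05 was likewise reached by 19 members.

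The largest levels in early-drying ST belonged to a pair of members singled out after their values were seen. In ST, Xvis03_206669 went from 95.34, 5.83 and 3.21 FPKM (full turgor) to 1052.47, 190.39 and 151.16 (75% RWC). The libraries of the 2 stages did not overlap, and the log2 difference was 4.48 (standard error 1.24, limma adjusted p = 0.00446). In NST at 75% RWC it stood at 9.24, 12.82 and 28.81 FPKM, below each of these ST libraries. In ST, Xvis03_220506 went from 102.05, 7.01 and 2.29 FPKM (full turgor) to 1172.03, 661.94 and 100.65 (75% RWC). Replicate 0 at full turgor reached above replicate 2 at 75% RWC, so the groups overlapped, with a log2 difference of 4.94 and a standard error of 1.31 (limma, adjusted p = 0.0032).

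The lead of ST over NST at 75% RWC was uneven. The ST mean was higher for 19 of 25 members, with a median level of 44.3 FPKM against 17.0 in NST. It was also higher for 302 of the 388 returned transcripts. All 3 ST libraries lay above all 3 NST libraries for 5 of 25, and for 10.6% of all entries tested. Some replicate numbers stood apart in several tissues of a stage. At 75% RWC replicate 2 had the highest median log2(FPKM + 1) over the members in NST (5.05, against 3.36 and 3.79) and in PST (5.05, against 3.47 and 3.58), whereas in ST replicate 0 was the highest (5.59) and replicate 2 stood at 5.35. At 55% RWC replicate 2 was the lowest in each tissue, at 3.73 in NST, 3.83 in PST and 5.42 in ST, and the other libraries there stood from 5.76 to 6.11. What these libraries share beyond a number was not tested.

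In dry ST nearly every member was high. At <10% RWC 24 of 25 were higher than in ST at full turgor and 0 lower, where 25% of all entries were higher and 29.3% lower (limma, adjusted p under 0.05). The median log2 difference was 4.32 for the members, -0.11 for all entries and 3.60 for the returned transcripts. Of the returned transcripts 378 of 388 were higher and 0 lower. The median level reached 90.2 FPKM in dry ST, 78.3 in dry PST and 60.3 in dry NST. The drying direction in ST is not wholly independent of the choice of members. Same-numbered libraries of dry NST and dry ST deviated together from their group means (correlations over all tested entries from 0.389 to 0.540), as did those of NST and ST at full turgor (0.676 to 0.746).

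The exception was a member whose libraries within a stage differed widely, in the same order in each tissue at some stages. Xvis03_201363, singled out after its values were seen, stood at 90.8, 57.28 and 0.41 FPKM in NST at 55% RWC. At the same stage it stood at 155.17, 42.53 and 0.95 in PST and at 162.94, 41.87 and 0.43 in ST. Replicate 2 was near 0 in each tissue. At 48 h of rehydration replicate 2 was instead the highest, with 7.07, 0.93 and 28.02 FPKM in NST, 4.18, 2.96 and 72.04 in PST, and 2.13, 2.21 and 61.33 in ST. Limma called it in none of the 11 comparisons, and in ST at <10% RWC against full turgor its log2 difference was 0.97 (standard error 2.05, limma adjusted p = 0.711). Its place among the members rests on the mean of 3 unlike libraries.

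The members of PST also climbed on drying. Their median level went through 20.8 FPKM (75% RWC), 47.0 (55%), 49.7 (35%) and 78.3 (<10%). At <10% RWC 13 of 25 members were higher than at 75% RWC and 0 lower, where 12.6% of all entries were higher and 13.1% lower (limma, adjusted p under 0.05). For the members the median log2 difference was 2.37, -0.06 for all entries and 1.23 for the returned transcripts, of which 168 of 388 were higher. Same-numbered libraries of dry NST and dry PST deviated together (correlations from 0.626 to 0.769), so this rise too is not wholly independent of the choice of members. The highest drying-stage mean fell at <10% RWC for 13 members in PST and for 12 in ST. Leaving out replicate 0 of PST at 75% RWC lowered the count of 13 to 7, and fitting the compared libraries alone lowered it to 2.

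Dry ST was set against dry PST directly. When dry, ST had 0 members higher and 1 lower than PST, where 6.17% of all entries were higher and 5.06% lower (limma, adjusted p under 0.05, with 3 members at an unadjusted p under 0.05). The median log2 difference was 0.35 for the members and 0.04 for all entries. With the replicate number as a block 2 members were higher in ST and 3 lower, where 17% of all entries were higher and 13.1% lower in that fit. The 1 lower call was lost on leaving out dry PST replicate 1 or dry ST replicate 0 and when only the compared libraries were fitted (limma, 0 members, with 1, 1 and 3 at an unadjusted p under 0.05). Without dry PST replicate 0 the 1 call was a member higher, and without dry ST replicate 1 the count was 2, 1 in each direction.

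The tissues were then described after rewatering. In rehydrated ST the members stood near their dry level, in rehydrated PST they lay lower and in rehydrated NST lowest, with median levels over the members of 84.9, 57.8 and 18.1 FPKM. The share of the dry level kept had a median of 107% in ST, 52.4% in PST and 30.3% in NST. For the returned transcripts the medians were 79.1%, 29.1% and 4.04%. The place of NST is a description, since the limits set its rehydrated level below its dry level. The rehydrated mean was at or above the dry mean for 14 of 25 members in ST, for 5 in PST and for 0 in NST, where the limits allow 0. It was at or above 50% of the dry mean for 18 members in ST and 13 in PST. For the returned transcripts it reached the dry mean for 144 of 388 in ST and for 6 in PST. The log2 change from dry to rehydrated ST was positive for 14 members and for 9096 of 18717 entries, so the members lay near all entries. In PST that change was positive for 5 members and for 9630 entries.

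The order of the tissues was looser for the members than for the returned transcripts. The rehydrated PST mean lay between the NST and ST means for 16 of 25 members and for 369 of 388 returned transcripts. The rehydrated ST mean was above that of NST for 24 members, and all 3 libraries of ST lay above all 3 of NST for 16 of 25. That held for 26.7% of all entries tested and for 366 of the 388 returned transcripts. As both sets were chosen on the rehydrated NST libraries, with opposite limits, this difference between them has no test.

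Against its own full turgor, rehydrated ST had 23 of 25 members higher and 0 lower, where 22.1% of all entries were higher and 29.8% lower (limma, adjusted p under 0.05). For the members the median log2 difference was 4.14, -0.20 for all entries and 3.27 for the returned transcripts. Of the returned transcripts 340 of 388 were higher and 4 lower. The members not called were Xvis03_201363 and Xvis03_212387, with log2 differences of 1.88 and 1.49 (limma, adjusted p = 0.463 and adjusted p = 0.0978).

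Against dry ST, rehydrated ST had 4 of 25 members higher and 1 lower, where 13.8% of all entries were higher and 16.2% lower (limma, adjusted p under 0.05, with 6 members at an unadjusted p under 0.05). The share called higher (16%) is near that of all entries, and the share called lower (4%) lies below that of all entries. The median log2 difference was 0.13 for the members, 0.00 for all entries and -0.31 for the returned transcripts, of which 23 were higher and 71 lower. The differences of single members ran from -1.89 to 2.70. On leaving out 1 library the count of 5 became 1 (dry ST replicate 0), 2 (rehydrated ST replicate 1), 3 (dry ST replicate 1, or rehydrated ST replicate 0 or 2) or 4 (dry ST replicate 2).

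The largest rise on rewatering in ST was that of Xvis03_224153. In ST it stood at 0.85, 0.66 and 0.88 FPKM when hydrated, at 2.1, 8.67 and 14.45 when dry, and at 48.03, 53.13 and 46.62 after rehydration. The 3 rehydrated libraries lay close together and above every dry ST and every dry NST library. The log2 difference was 2.70 (standard error 0.72, limma adjusted p = 0.00408), and without dry ST replicate 0 it was 2.04 (limma, adjusted p = 0.0590). In rehydrated PST it stood at 4.93, 6.59 and 19.95 FPKM, within the range of 5.19 to 21.5 of dry PST apart from the lowest library.

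The second was Xvis03_202672, a member just inside the recovery limit. In ST it stood at 38.18, 28.39 and 26.27 FPKM when hydrated, at 66.75, 86.3 and 117.43 when dry, and at 560.08, 295.2 and 450.53 after rehydration. These 3 stages did not overlap, and the log2 difference between the last 2 was 2.25 (standard error 0.50, limma adjusted p = 0.000732). In ST at 35% RWC it had stood at 150.34, 185.97 and 260.74 FPKM, above each dry ST library and below each rehydrated one. In PST it stood at 349.77, 270.97 and 232.41 FPKM when dry and at 761.57, 573.51 and 548.88 after rehydration. The libraries did not overlap, and the log2 difference of 1.15 had a standard error of 0.50 and missed the threshold (limma, adjusted p = 0.0788). It was also the 1 member that differed between dry ST and dry PST, lower in ST by a log2 difference of -1.66 (standard error 0.50, limma adjusted p = 0.0242).

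The 1 fall on rewatering in ST was that of Xvis03_222765. It stood at 83.42, 86.15 and 71.12 FPKM in dry ST and at 38.03, 22.68 and 30.48 in rehydrated ST. The groups did not overlap, and the log2 difference was -1.40 (standard error 0.52, limma adjusted p = 0.0377). The call was lost with a pseudocount of 0.1 (limma, adjusted p = 0.0749), after quantile normalization (limma, adjusted p = 0.106) and without 5 of the 6 libraries in turn. Even so, the rehydrated level lay far above the 0.39, 0.07 and 0.06 FPKM of ST at full turgor, with a log2 difference of 4.72 and a standard error of 0.52 (limma, adjusted p = 2.61e-09).

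**Figure D3:**
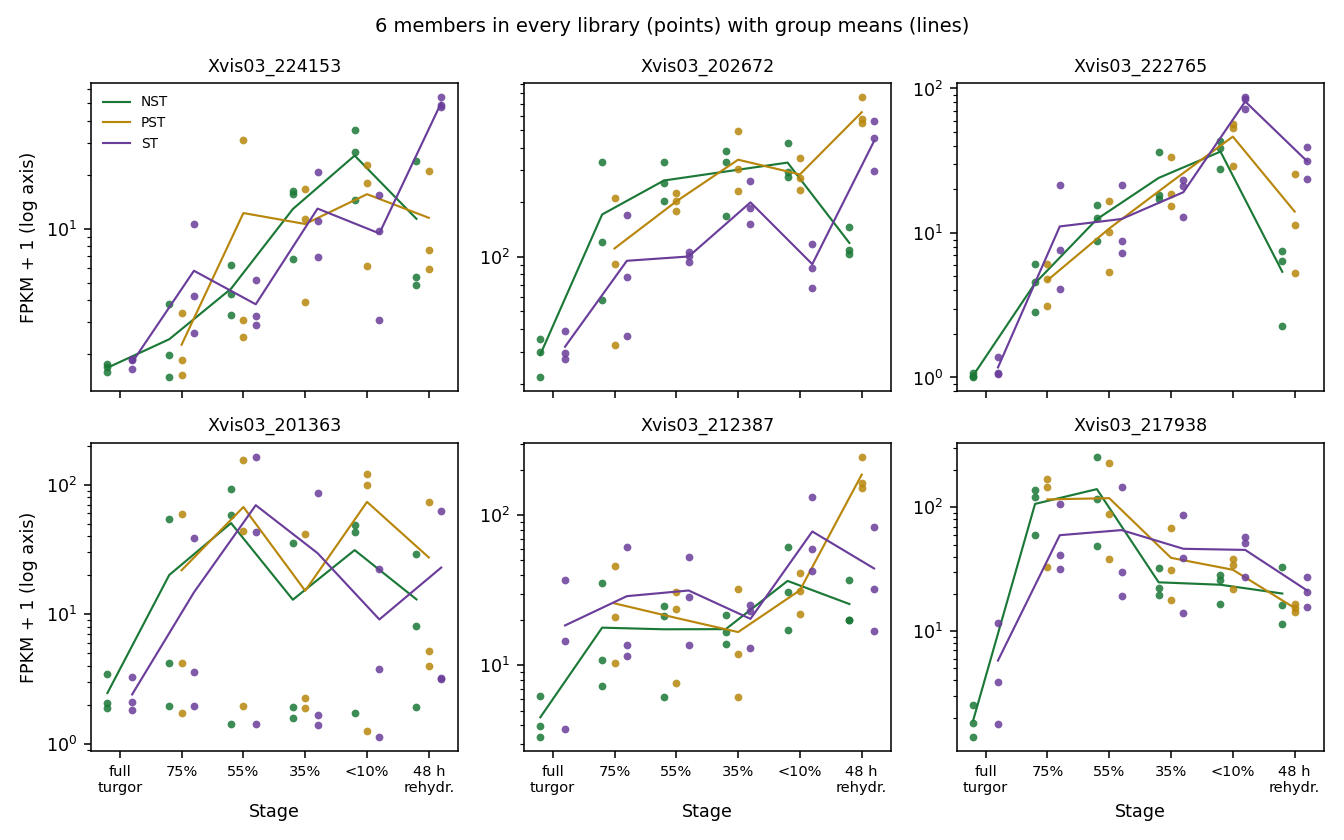
FPKM + 1 on a log axis for 6 members in every library (points) with group means (lines), by stage, for NST, PST and ST. Xvis03_224153, Xvis03_202672 and Xvis03_222765 were named by rule and the others after their values were seen; the 3 rehydrated ST points of Xvis03_224153, at 46.62 to 53.13 FPKM, stand above the other points of that member.

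Rewatering of PST was followed in the same way. Against dry PST, 1 of 25 was higher and 3 lower after rehydration, where 16.3% of all entries were higher and 13.8% lower (limma, adjusted p under 0.05, with 9 members at an unadjusted p under 0.05). For the members the median log2 difference was -0.99, 0.03 for all entries and -2.06 for the returned transcripts, of which 0 were higher and 258 of 388 lower. The share of members called lower (12%) is near that of all entries, and the share called higher (4%) lies below that of all entries. When only the compared libraries were fitted, 1 was higher and 1 lower.

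The member higher in rehydrated PST was Xvis03_212387, singled out after its values were seen. It stood at 40.51, 21.05 and 30.45 FPKM in dry PST and at 162.31, 150.81 and 244.07 in rehydrated PST. The groups did not overlap, and the log2 difference was 2.57 (standard error 0.76, limma adjusted p = 0.00918). In ST it stood at 130.67, 41.62 and 58.72 FPKM when dry and at 82.7, 31.15 and 15.84 after rehydration, and these groups overlapped. In NST it stood at 18.99, 19.01 and 35.92 FPKM after rehydration. The rehydrated PST libraries of this member were thus above every library of NST and ST.

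The members lower in rehydrated PST included Xvis03_221812, also singled out after its values were seen. It stood at 400.82, 327.14 and 200.66 FPKM in dry PST and at 48.3, 27.89 and 102.15 after rehydration. The groups did not overlap, with a log2 difference of -2.50 and a standard error of 0.68 (limma, adjusted p = 0.00485). Xvis03_209833 stood at 271.52, 220.43 and 198.12 FPKM in dry PST and at 48.39, 22.53 and 146.65 after rehydration. Again the groups did not overlap, with a log2 difference of -2.04 and a standard error of 0.46 (limma, adjusted p = 0.000811). In both members replicate 2 was the highest rehydrated PST library.

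That library stood high for most of the set. Rehydrated PST replicate 2 was the highest of its group for 20 of 25 members, and for 38.3% of all entries tested. Its median log2(FPKM + 1) over the members was 6.31, against 4.96 and 4.85 in replicates 0 and 1. Over the returned transcripts it was 5.69, against 3.99 and 3.42.

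Rehydrated PST was also set against PST at 75% RWC, the earliest PST stage sampled. There, 10 of 25 members were higher and 3 lower, where 14.6% of all entries were higher and 14.1% lower (limma, adjusted p under 0.05). The median log2 difference was 1.52 for the members, 0.03 for all entries and -0.88 for the returned transcripts, of which 48 were higher and 155 lower. The largest rise was that of Xvis03_204262, singled out after its values were seen, from 1.01, 0.44 and 4.9 FPKM to 67.9, 55.98 and 163.89. The groups did not overlap, with a log2 difference of 5.07 and a standard error of 0.78 (limma, adjusted p = 4.93e-06). The largest fall was that of Xvis03_224365, likewise chosen, from 93.12, 51.02 and 28.48 FPKM to 6.32, 2.54 and 7.43. Again the groups did not overlap, with a log2 difference of -3.12 and a standard error of 0.90 (limma, adjusted p = 0.00791). On leaving out 1 library the count of 13 became as low as 6 (PST at 75% RWC replicate 0) and 8 (rehydrated PST replicate 2), and it was 4 when only the compared libraries were fitted.

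Compared directly after rehydration, ST had 5 of 25 members higher and 1 lower than PST, where 10.9% of all entries were higher and 12.1% lower (limma, adjusted p under 0.05). For the members the median log2 difference was 1.09, -0.06 for all entries and 1.76 for the returned transcripts, of which 227 of 388 were higher and 0 lower. The clearest was Xvis03_209833, at 292.21, 269.64 and 361.7 FPKM in rehydrated ST against 48.39, 22.53 and 146.65 in rehydrated PST. The groups did not overlap, with a log2 difference of 2.46 and a standard error of 0.46 (limma, adjusted p = 0.000178). The 1 lower member was Xvis03_212387, with a log2 difference of -2.36 and a standard error of 0.76 (limma, adjusted p = 0.0215). With the replicate number as a block 11 members were higher and 1 lower, where 21.5% of all entries were higher and 23.1% lower in that fit. Without rehydrated PST replicate 0 or without its replicate 1 the count was 1, and when only the compared libraries were fitted it was 0 (limma, with 11 members at an unadjusted p under 0.05).

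The difference between ST and PST in the change on rewatering was tested in the same model. The change was more upward in ST for 3 of 25 members and more downward for 1, where 9.01% of all entries were called upward and 11.8% downward (limma, adjusted p under 0.05, with 4 members at an unadjusted p under 0.05). The upward share of the members (12%) is near that of all entries, and the downward share (4%) lies below that of all entries. With the replicate number as a block 8 were upward and 2 downward, where 20.6% of all entries were called upward and 24.1% downward in that fit. The median of the difference was 1.15 for the members, -0.12 for all entries and 1.79 for the returned transcripts, of which 129 of 388 were called upward. The difference was 3.17 for Xvis03_224153 (standard error 1.02, limma adjusted p = 0.0233). It was -3.54 for Xvis03_212387 (standard error 1.07, limma adjusted p = 0.0170). The count of 4 was 1 without rehydrated PST replicate 1, without dry ST replicate 0, or when only the compared libraries were fitted, and 2 without dry PST replicate 1 or 2, rehydrated PST replicate 0 or rehydrated ST replicate 2.

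**Figure D4:**
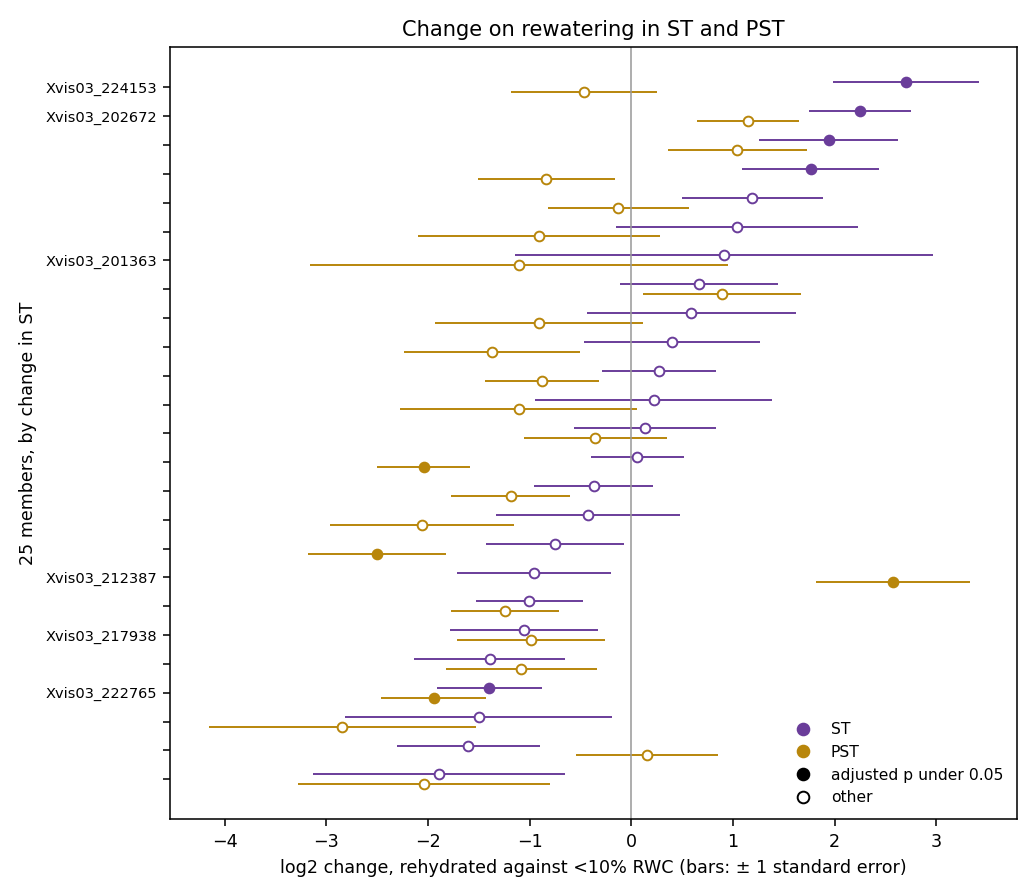
Log2 change from <10% RWC to 48 h of rehydration for each of the 25 members, in ST and in PST, with bars of 1 standard error from limma and filled points at an adjusted p under 0.05. In ST the points run from -1.89 to 2.70 around a median of 0.13, and in PST the median is -0.99.

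The calls on rewatering in ST and PST were set side by side. Of the 4 members higher in rehydrated than in dry ST, 0 were called higher and 0 lower in rehydrated than in dry PST. Even so, Xvis03_202672 and Xvis03_208581 rose in PST without overlap of libraries, by log2 differences of 1.15 and 1.04 (limma, adjusted p = 0.0788 and adjusted p = 0.261). In both, the change did not differ between ST and PST past the threshold (limma, adjusted p = 0.277 and adjusted p = 0.551). Xvis03_210222 and Xvis03_224153 overlapped in PST, with log2 differences of -0.84 and -0.47. Xvis03_208581 and Xvis03_210222 are named after their values were seen. Of the 3 lower in PST, 1 was lower in ST, namely Xvis03_222765, and 2 were not called there. A total of 17 members were called in neither tissue. The joint counts were not set against those of all entries, so they are no result about the set.

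The balance of higher and lower entries moved with the scaling of the libraries. Quantile normalization shifted the log2 differences of single entries by a median of between -0.11 and 0.27 over the 11 comparisons. The share of called entries that were higher went from 42.5% to 52.9% for rehydrated ST against full turgor, from 54.9% to 43.8% for dry ST against dry PST, and from 43.2% to 53.9% for the difference in change. The median of the members kept its sign in all 11, from 0.35 to 0.09 in dry ST against dry PST.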

How the data were processed

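RNA from leaf blades was sequenced as 51 libraries. The authors deposited 1 table with 1 column per library, rounded to 2 decimals, whose header names no unit. Its values are taken as FPKM, the unit that Cuffdiff writes, as the authors' processing notes name that tool. Per the submitters' processing notes the tools were Bowtie2, TopHat and Cuffdiff. Per the series' design text reads were mapped to the genome of the species. The sources used here do not give tool versions, the genome build or Cuffdiff's scaling. No read counts are in the table, so depth is unknown and no counting interval is given. Relative depth was estimated from the lowest values of 4320 genes, and 84.2% of 1060 library pairs met within 0.05 on the log2 scale.

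Groups came from the labels, and columns were matched to groups by name. Columns at "100" in their names were taken as full turgor, the 1 stage left over. The table has 21815 entries, and 499 IDs that occur more than once (1032 entries) were barred from the members but tested as separate entries. The members, the returned transcripts and the comparisons were chosen with earlier results of these data known.

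Entries with at least 1 FPKM in at least 3 libraries (18717) were tested on log2(FPKM + 1), a scale that understates the change of low genes. Group means were fitted to the 51 libraries in 1 model with limma 3.58.1 (R 4.3.3), with a variance trend and 34 residual degrees of freedom. The two-sided p-values were adjusted by Benjamini-Hochberg within each of 11 comparisons, with a threshold of 0.05. Comparisons share groups and are not independent. The fit was tested on simulated data with independent libraries and changes in rehydrated ST alone. Same-numbered libraries did not deviate together in that setting, so it is no check on the calls between ST and PST. The named IDs are up to 2 members that rose most and up to 2 that fell most in rehydrated against dry ST, past the threshold, without overlap of libraries and with at least 10 FPKM in the higher group. Only 1 fall qualified.

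The replicate numbers come from the column names. Libraries with 1 number deviated together from their group means between ST and PST at <10% RWC (correlations 0.472 to 0.564) and after rehydration (0.384 to 0.557), and between ST at <10% RWC and at full turgor (0.168 to 0.208), but not throughout in the other tested pairs. Alternatives were a pseudocount of 0.1, no filter, a filter of 5 FPKM, quantile normalization, a replicate block, a fit of the compared groups alone, and each library left out in turn. The choice of members was also repeated on group medians.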

Additional observations from a re-analysis of the deposited data

Results flagged for a closer look

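The change from <10% RWC to 48 h of rehydration differed between ST and PST, in a direct test of that difference, for 4 of the 25 members. It was more upward in ST for 3 members and more downward for 1 (limma, adjusted p under 0.05). Of all entries tested 9.01% were called upward and 11.8% downward, so the members' count is near the background and is no result about the set. Among them, Xvis03_224153 had a difference of 3.17 on the log2 scale (limma, adjusted p = 0.0233). Its level rose in all 3 rehydrated ST libraries above all 3 dry ST libraries, and in PST the dry and rehydrated libraries overlapped. Without rehydrated PST replicate 2, which stood high for most members, the same 4 were called. The count was 1 without rehydrated PST replicate 1 (downward), without dry ST replicate 0, or when the compared groups alone were fitted, and 2 in 4 other cases of a library left out.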

How the results depend on the processing

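Adding 0.1 to the group means gave 59 members in place of 25, and leaving out 1 library gave 23 to 38. Medians in place of group means gave 22 members, of which 17 were among the 25. Without rehydrated NST replicate 2 there were 24 members, of which 19 were among the 25. A pseudocount of 0.1, or quantile normalization, gave 3 calls in place of 5 for rehydrated against dry ST. Quantile normalization gave 2 in place of 4 for the ST minus PST change. The replicate block, given beside its results in the text, gave 5 in place of 1 for dry ST against dry PST, 12 in place of 6 for rehydrated ST against PST, and 10 in place of 4 for the ST minus PST change. Between stages the numbers did not pair the libraries throughout, and the block moved no other count by over 1.5 times.

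Fitting the compared groups alone, which leaves fewer libraries to estimate the spread, gave counts of 0 for NST at 35% against 75% RWC, 2 for dry PST against 75% RWC, 2 and 4 for rehydrated PST against dry PST and PST at 75% RWC, 0 for dry ST against dry PST, 0 for rehydrated ST against PST, and 1 for the ST minus PST change, which was downward. Leaving out 1 library at a time gave 4 to 15 calls for NST at 35% against 75% RWC, 7 to 16 for dry PST against 75% RWC, 6 to 13 for rehydrated PST against 75% RWC, 0 to 2 for dry ST against dry PST, 1 to 6 for rehydrated ST against PST, 1 to 4 for the ST minus PST change and 1 to 4 for rehydrated against dry ST. The balance of calls turned without PST at <10% RWC replicate 0 for dry ST against dry PST (1 call, higher) and without rehydrated PST replicate 1 for the ST minus PST change (1 call, lower). The cause was not tested. The counts for ST at 75% RWC, dry ST and rehydrated ST against full turgor, and for rehydrated against dry PST apart from the setting above, stayed within 1.5 times under every alternative run. Low members are less precise in the dry and rehydrated groups, where relative depth was lowest, except rehydrated PST (mean 1.12).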
